A study of Glycine max with 47 samples.

Results

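The maturity genes E1, E2, E3 and E4 of soybean (Glycine max) were followed in whole roots of 2 cultivars. They were taken as the rows with the IDs Glyma.06g207800 (E1), Glyma.10g221500 (E2, a GIGANTEA gene), Glyma.19g224200 (E3, PHYA3) and Glyma.20g090000 (E4, PHYA2), which are 4 of the 55983 genes of the count table. The rule names the IDs and uses no expression value. All 4 rows were present, and 3 of them (E2, E3 and E4) passed the filter on low values, as did 43122 genes of the table. The filter asked for a level of 0.5 CPM, the count scaled to the total of its library, in 1 library or more, and E1 did not reach this level in any.

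The roots came from MN1806CN, a cultivar resistant to the soybean cyst nematode (SCN, Heterodera glycines HG type 0), and from PI518671, an SCN-susceptible cultivar from which the reference transcripts come. Both cultivars are susceptible to the soybean aphid (SBA, biotype 1). The treatments were SCN (2000 eggs per container at planting), SBA (15 aphids per plant at the second trifoliate stage), both pests together (SCN:SBA) and a control with neither. The aphids were placed on leaves, so roots with SBA are roots of plants with aphids on the shoot. All plants were grown in containers of sand and clay soil in greenhouse water baths under long days. Roots were taken at 30 and 5 days post infestation (dpi) with aphids, the later ones from a second water bath, so that time point and water bath cannot be told apart. The 47 libraries form 16 groups with 3 biological replicates each, except MN1806CN control at 30 dpi with 2. The alleles that the cultivars carry at the 4 loci and the hour of sampling are not given in the sources used here.

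The 4 genes belong to the photoperiod pathway, which sets flowering and maturity by day length and is best described in leaves. E3 and E4 encode phytochrome A photoreceptors that read red and far-red light. E2 encodes a GIGANTEA protein, an output of the circadian clock, and E1 encodes a legume-specific transcription factor with a B3 domain that holds back flowering in long days by repressing FT genes, whose products promote flowering. Recessive alleles at these loci make soybean flower and mature earlier. In roots the phytochromes and the clock are also active, while flowering itself is decided in the shoot.

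The libraries held 8472717 to 47902174 estimated counts each (median 18350922). The mean correlation of a library with the other replicates of its group ran from 0.888 to 0.987, and the 4 lowest values belonged to PI518671 SCN:SBA at 5 dpi replicate 3 (0.888), PI518671 SBA at 30 dpi replicates 3 (0.90) and 2 (0.907) and PI518671 control at 5 dpi replicate 1 (0.912). A pair of IDs listed for green shoot tissue summed to 0 to 6.19 CPM, while 4 IDs listed for nodules summed to 15.1 to 19602 CPM and varied within nearly every group. These IDs were listed from general knowledge and could not be checked against an annotation. Levels below are CPM scaled by edgeR's TMM factors, which ranged from 0.621 to 1.22 over the libraries. In bulk roots, fewer cells of a type and less RNA per cell cannot be told apart.

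E4, one of the phytochrome A genes, ranged from 4.98 to 245 TMM-scaled CPM over the 47 libraries, with a median of 54.5. In uninfested roots at 5 dpi it was 38.5, 52.1 and 40.1 in MN1806CN, against 128, 136 and 245 in PI518671. On this scale the 3 PI518671 control libraries at 5 dpi were the highest of all 47, and the 2 cultivars did not overlap. Scaled to library totals only, E4 was 37.8, 51.6 and 36.4 CPM in MN1806CN, against 132, 84.3 and 172 in PI518671. The cultivars did not overlap on that scale either, but PI518671 replicate 2 then lay below several infested libraries, the highest of them MN1806CN SCN:SBA at 30 dpi replicate 2 with 131.6 CPM. E4 averaged 43.6 ± 7.44 in MN1806CN, against 169.7 ± 65.6 in PI518671 (SD, n = 3 each). The log2 fold change was -1.96 ± 0.49 (SE), a level 3.9-fold lower in MN1806CN (edgeR quasi-likelihood F test, adjusted p = 0.00707). In this comparison 22.5% of the genes tested passed the same threshold, an adjusted p of 0.05, and 32% did not overlap. Of the 3 maturity genes tested, 1 (E4) was called there. The call held in 9 of 9 other settings, with adjusted p between 0.000424 and 0.0266, and in 6 of 6 fits that each left out 1 library of the groups compared, with adjusted p up to 0.0401.

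The TMM factors of the PI518671 control libraries at 5 dpi were 1.03, 0.621 and 0.703, against 0.980, 0.992 and 0.909 in those of MN1806CN. Without this scaling the median log2 fold change of all genes moved by 0.27, and E4 stood at -1.63. The share of called genes that were higher in MN1806CN was 56.1% with the scaling and 76.6% without. The paper lists a smaller share of mapped reads in each MN1806CN control library at 5 dpi than in each PI518671 one. The control libraries of the later time point differed in the same direction. With SCN at 5 dpi the mapped shares of the cultivars overlapped. The part of mapping in the E4 difference was not tested.

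**Figure D1:**
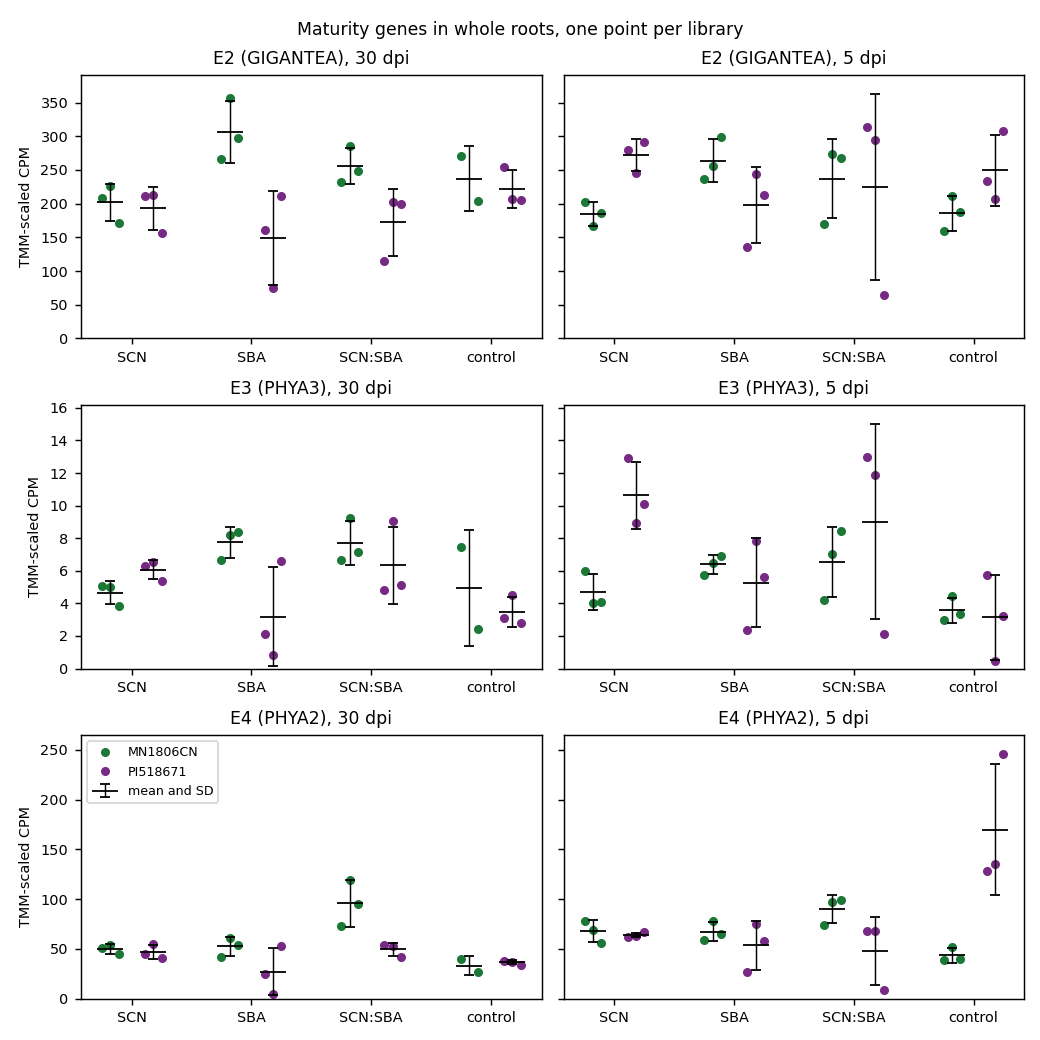
TMM-scaled CPM of E2, E3 and E4 (rows) at 30 and 5 dpi (columns), by treatment, with MN1806CN in green left of PI518671 in purple. Points are libraries, and black bars give the mean and SD. The 3 PI518671 control libraries at 5 dpi lie at 128, 136 and 245 CPM for E4, above all others, and PI518671 SCN:SBA at 5 dpi replicate 3 and PI518671 SBA at 30 dpi replicate 2 lie low in all 3 rows.

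In roots of plants with pests at 5 dpi, E4 was not called between the cultivars. The values with SBA and SCN:SBA lay on the other side of 0 from that of the controls. The value with SCN was near 0 and ran from -0.062 to 0.15 with 1 library left out. With SCN it was 78.1, 69.4 and 55.8 CPM in MN1806CN, against 62.2, 62.9 and 66.6 in PI518671, a log2 fold change of 0.03 ± 0.48 (adjusted p = 0.978). There 0 of the 3 genes were called (0 at an unadjusted p under 0.05, 0 by DESeq2) where 7.72% of all genes were. An edgeR fit of these groups alone called E3 (-1.20, adjusted p = 0.0204). With SBA, E4 was 59.3, 78.1 and 65.0 in MN1806CN, against 27.2, 75.3 and 58.1 in PI518671, a log2 fold change of 0.35 ± 0.48 (adjusted p = 0.72, 3.65% of all genes called). Both of these pairs of groups overlapped, while with SBA 25.4% of all genes did not. With SCN:SBA, E4 was 74.5, 97.2 and 99.1 in MN1806CN, against 67.6, 68.3 and 8.78 in PI518671. These groups did not overlap, as 19.7% of all genes did not, but the log2 fold change of 0.92 ± 0.48 missed the threshold (adjusted p = 0.512, 0.851% of all genes called), and without the library at 8.78 CPM it was 0.43. The dependence of the cultivar difference on treatment was called for E4 at 5 dpi (interaction F = 6.63, adjusted p = 0.0346, 10.3% of all genes called), and not for E2 (adjusted p = 0.433) or E3 (adjusted p = 0.47). The interaction call was lost without the TMM scaling (F = 4.39, adjusted p = 0.102) and in 7 of 24 fits that left out a library: MN1806CN control replicates 1, 2 or 3 (adjusted p = 0.0916, 0.0704 and 0.0975), MN1806CN SCN:SBA replicates 2 or 3 (0.0571 and 0.0558) and PI518671 control replicates 2 or 3 (0.0562 and 0.113).

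At 30 dpi, E4 was not called between the cultivars in any treatment by edgeR with all libraries of the time point. In uninfested roots it was 39.8 and 26.8 CPM in MN1806CN control, against 37.8, 37.4 and 34.1 in PI518671 control, a log2 fold change of -0.16 ± 0.50 (adjusted p = 0.907), in a comparison with 6.76% of all genes called and 47.4% without overlap. With SCN it was 49.9 ± 4.76 in MN1806CN, against 46.8 ± 7.02 in PI518671 (SD, n = 3 each), a log2 fold change of 0.06 ± 0.45 (adjusted p = 0.95, 19.5% of all genes called and 45.5% without overlap). With SCN:SBA the groups stood apart, with 72.7, 119 and 95.2 CPM in MN1806CN, against 53.7, 53.2 and 41.7 in PI518671. The log2 fold change there was 0.94 ± 0.45 and missed the threshold (adjusted p = 0.128), in a comparison with 29.4% of all genes called and 44.4% without overlap. In a fit of these groups alone it was 0.93 and called (adjusted p = 0.0426). With SBA, E4 was 41.9, 61.4 and 54.3 in MN1806CN, against 24.4, 4.98 and 52.5 in PI518671, a log2 fold change of 0.91 ± 0.45 (adjusted p = 0.154). Without PI518671 SBA replicate 3, one of the 2 libraries of this group that agree least with their replicates, it was 1.78 and called (adjusted p = 0.0035), and without replicate 2 it was 0.45 (adjusted p = 0.359).

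E3, the other phytochrome A gene, was read at 0.481 to 13 TMM-scaled CPM, with a median of 5.73 and raw estimated counts of 6 to 697. With edgeR and all libraries of the time point it was called between the cultivars in 0 of 8 comparisons, where 0.851 to 29.4% of all genes were. Of the 8, 1 had an unadjusted p under 0.05 and 1 was called by DESeq2 (SBA at 30 dpi, 1.27, adjusted p = 0.0479). An edgeR fit of the groups alone called E3 with SCN at 5 dpi (-1.20, adjusted p = 0.0204). The largest differences were in opposite directions, a log2 fold change of -1.23 ± 0.60 with SCN at 5 dpi (adjusted p = 0.199) and of 1.22 ± 0.49 with SBA at 30 dpi (adjusted p = 0.0825). With SCN at 5 dpi, E3 was 5.98, 4.02 and 4.11 CPM in MN1806CN, against 12.9, 8.93 and 10.1 in PI518671. These groups did not overlap, nor did 41.1% of all genes in this comparison. With SBA at 30 dpi it was 6.67, 8.2 and 8.38 in MN1806CN, against 2.15, 0.810 and 6.61 in PI518671. These did not overlap either, as 24.8% of all genes did not, and the result turned on 1 library: without PI518671 SBA replicate 3 the log2 fold change was 2.32 (adjusted p = 0.00094), and without replicate 2 it was 0.80 (adjusted p = 0.273). In the other 6 cultivar comparisons the log2 fold changes of E3 lay between -0.45 and 0.46 with standard errors of 0.47 to 0.61.

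E2, the GIGANTEA gene, had the smallest spread between replicates of the 3 genes tested, and was read at 65.0 to 357 TMM-scaled CPM with a median of 212. In roots of plants with aphids at 30 dpi it was 266, 357 and 297 CPM in MN1806CN, against 161, 74.6 and 212 in PI518671. Every MN1806CN library lay above every PI518671 library, and 24.8% of all genes did not overlap. The level was 307 ± 46.4 in MN1806CN, against 149 ± 69.3 in PI518671 (SD, n = 3 each), a log2 fold change of 1.00 ± 0.30 (adjusted p = 0.0275, 2.01-fold higher in MN1806CN). In this comparison 17.9% of all genes were called, and E2 was 1 of the 3 maturity genes tested. The call was lost in a fit of all 47 libraries (adjusted p = 0.0505) and of these groups alone (0.243), and without MN1806CN replicates 2 or 3 (0.0927 and 0.0612) or PI518671 replicates 1 or 2 (0.053 and 0.108). Without PI518671 replicate 2, the library at 74.6 CPM, the log2 fold change was 0.72.

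Over the pooled libraries of the 4 treatments at 30 dpi, E2 was 252 ± 51.5 CPM in MN1806CN (SD, n = 11) and 184 ± 49.5 in PI518671 (SD, n = 12). These SDs include differences between treatments. The tested value, the mean of the 4 within-treatment differences, was a log2 fold change of 0.41 ± 0.15 (SE, adjusted p = 0.0346). In the same test 42.6% of all genes were called, and 1 of the 3 maturity genes. The call was lost in 7 of 23 fits that left out a library, with adjusted p of 0.051 to 0.097 and log2 fold changes of 0.36 to 0.42. Those libraries were MN1806CN SBA replicate 2, SCN replicate 2 and control replicate 1, and PI518671 SCN replicate 3, SCN:SBA replicate 1 and control replicates 2 and 3. The averages of E3 (0.38 ± 0.25, adjusted p = 0.224) and E4 (0.44 ± 0.23, adjusted p = 0.137) were on the same side and not called, and both were called without PI518671 SBA replicate 3 (adjusted p = 0.00929 and 0.00791). E4 was also called without replicate 2 of that group (0.34, adjusted p = 0.0463). At 5 dpi 0 of the 3 averages were called (0 at an unadjusted p under 0.05, 0 by DESeq2) where 23% of all genes were, with log2 fold changes of -0.13 ± 0.19 for E2, -0.30 ± 0.30 for E3 and -0.17 ± 0.24 for E4. For E4 this average joins a large negative value in the controls with values of 0.03 to 0.92 in the treated roots, and without the control groups it was 0.43 (adjusted p = 0.276).

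**Figure D2:**
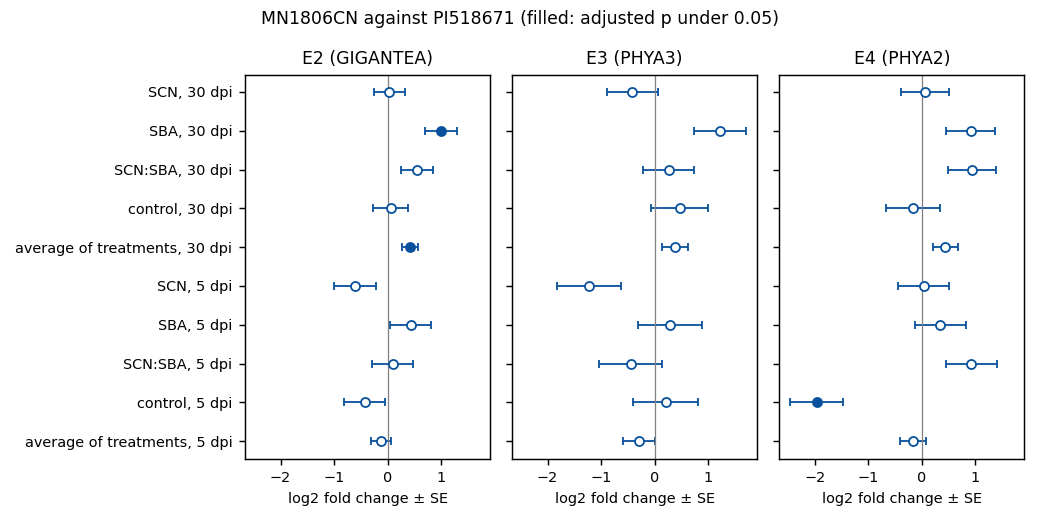
Log2 fold change of MN1806CN against PI518671 (horizontal axis, with SE bars) for E2, E3 and E4 in each treatment and averaged over treatments, 30 dpi above 5 dpi. Filled points have an adjusted p under 0.05. Those are E4 in control roots at 5 dpi (-1.96), E2 with SBA at 30 dpi (1.00) and E2 averaged at 30 dpi (0.41).

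In the other 7 single-treatment comparisons, none of them called, the log2 fold changes of E2 ran from -0.61 to 0.55 with standard errors of 0.30 to 0.39. With SCN at 5 dpi it was 203, 167 and 186 CPM in MN1806CN, against 280, 246 and 292 in PI518671, without overlap, as were 41.1% of all genes (log2 fold change -0.61 ± 0.39, adjusted p = 0.321). With SCN:SBA at 30 dpi it was 233, 285 and 249 in MN1806CN, against 114, 203 and 199 in PI518671, also without overlap, as were 44.4% of all genes (0.55 ± 0.30, adjusted p = 0.17). The sign of E2 thus differed between these 2 comparisons, and neither passed the test.

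E1, the flowering repressor, gave 19 counts in all over the 47 libraries. It was at 0 in 36 libraries, at 1 count in 5, at 2 counts in 5 and at 4 counts in 1, and its highest level was 0.224 CPM without scaling. A count of 0 allows a level of up to 3 counts, which is 0.0626 to 0.354 CPM depending on the depth of the library, counting error only. All of its estimated counts were whole numbers. It was above 0 in 2 of 23 MN1806CN libraries (3 counts) and in 9 of 24 PI518671 libraries (16 counts; Fisher's exact test, two-sided, p = 0.0363, adjusted over 3 tests 0.0545). At 5 dpi this was 0 of 12 MN1806CN libraries and 6 of 12 PI518671 libraries (exact p = 0.0137, adjusted 0.0411), and at 30 dpi 2 of 11 and 3 of 12 (exact p = 1). These 3 tests were chosen after the counts were seen and pool the 4 treatments. The adjustment covers neither point, so they do not decide whether the cultivars differ. In PI518671 at 5 dpi the counts lay in SCN replicates 1, 2 and 3 (4, 1 and 1 counts), SCN:SBA replicates 1 and 3 (2 and 1) and control replicate 3 (2). In fits without the filter on low values, E1 was called in 0 of 27 comparisons with edgeR, and 1 had an unadjusted p under 0.05.

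Against the control of their own cultivar, roots of infested plants at 5 dpi had lower E4 in PI518671 and higher values, none of them called, in MN1806CN. In PI518671, E4 fell in all 3 treatments: it was 63.9 ± 2.33 CPM with SCN, 53.5 ± 24.4 with SBA and 48.2 ± 34.2 with SCN:SBA, against 169.7 ± 65.6 in the control (SD, n = 3 each). The log2 fold changes were -1.35 ± 0.48 with SCN (adjusted p = 0.0357), -1.70 ± 0.49 with SBA (adjusted p = 0.0164) and -1.81 ± 0.49 with SCN:SBA (adjusted p = 0.00808). Many genes changed in these comparisons, with 33.9%, 23.1% and 32.3% of all genes called and 41.8%, 31.1% and 37.2% without overlap. In MN1806CN, E4 was 67.8 ± 11.2 CPM with SCN, 67.5 ± 9.63 with SBA and 90.3 ± 13.7 with SCN:SBA, against 43.6 ± 7.44 in the control. All of these infested libraries lay above all MN1806CN control libraries, but none of the log2 fold changes, 0.64 ± 0.48, 0.61 ± 0.48 and 1.07 ± 0.48, passed the test (adjusted p = 0.663, 0.633 and 0.242). In a fit of the groups alone, that with SCN:SBA was 1.01 and called (adjusted p = 0.0485). In these 3 comparisons 0.00464%, 0% and 0.0812% of all genes were called (with SBA, 4222 genes had an unadjusted p under 0.05 and DESeq2 called 23), and 21.6%, 20.7% and 33.5% did not overlap.

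The E4 calls in PI518671 share the same 3 control libraries. Scaled to library totals only, PI518671 SBA replicate 2 (86.2 CPM) lay above PI518671 control replicate 2 (84.3 CPM), so these groups then overlapped. The 10 highest genes took 2.83 to 5.50% of counts in the infested libraries at 5 dpi, against 6.24 to 9.21% in the MN1806CN controls and 3.76, 10% and 8.15% in the PI518671 control replicates 1, 2 and 3. The part of this in the result was not tested. Without the TMM scaling all 3 calls were lost: the log2 fold changes were -0.94, -1.09 and -1.19 (adjusted p = 0.165, 0.108 and 0.0767), and the median of all genes moved by 0.34, 0.53 and 0.52. Without PI518671 control replicate 3 (245 CPM) the calls with SCN (-1.05, adjusted p = 0.134) and SBA (-1.32, adjusted p = 0.102) were lost, and that with SCN:SBA held in 6 of 6 fits that left out a library. The SCN call was also lost without any of the 3 SCN libraries (adjusted p = 0.0889, 0.0837 and 0.079), and the SBA call without SBA replicate 1 (0.0751). In fits of each pair of groups alone, the SBA and SCN:SBA calls were lost (0.105 and 0.141).

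E3 moved the other way from E4 in PI518671 at 5 dpi. With SCN it was 12.9, 8.93 and 10.1 CPM, against 5.73, 0.481 and 3.2 in the control, and the groups did not overlap. It rose by 1.83 ± 0.62 on the log2 scale, or 3.55-fold (adjusted p = 0.0268). With edgeR and all libraries of the time point this was 1 call of E3 in the 12 comparisons with control. In these, 0 to 33.9% of all genes were called, with 33.9% for SCN in PI518671 at 5 dpi. DESeq2 gave 2 calls of E3, and a fit of the groups alone added E3 with SCN in PI518671 at 30 dpi. The call with SCN at 5 dpi was lost in a fit of the 2 groups alone (adjusted p = 0.0967), without SCN replicate 1 (0.076) and without control replicates 2 (1.28, adjusted p = 0.109) or 3 (0.0805). The control library at 0.481 CPM is replicate 2, with the lowest E3 level of the series. With SCN:SBA, E3 was 13, 11.9 and 2.13 CPM, and its log2 fold change of 1.54 ± 0.61 missed the threshold (adjusted p = 0.0582). It was called by DESeq2 (1.49, adjusted p = 0.0388), in the fit of all 47 libraries (1.51, adjusted p = 0.0382) and without the TMM scaling (1.92, adjusted p = 0.0399). Without the third library it was 2.0 (adjusted p = 0.0113) and without control replicate 1 it was 2.21 (adjusted p = 0.0152). With SBA it was 0.73 ± 0.60 (adjusted p = 0.397). The interaction of cultivar and treatment was not called for E3, so a difference of this response between the cultivars was not shown. At 30 dpi it was not called for any of the 3 genes (adjusted p = 0.291 to 0.455, 7.5% of all genes called), though without PI518671 SBA replicate 3 it was for E3 (adjusted p = 0.0142) and E4 (0.0449).

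**Figure D3:**
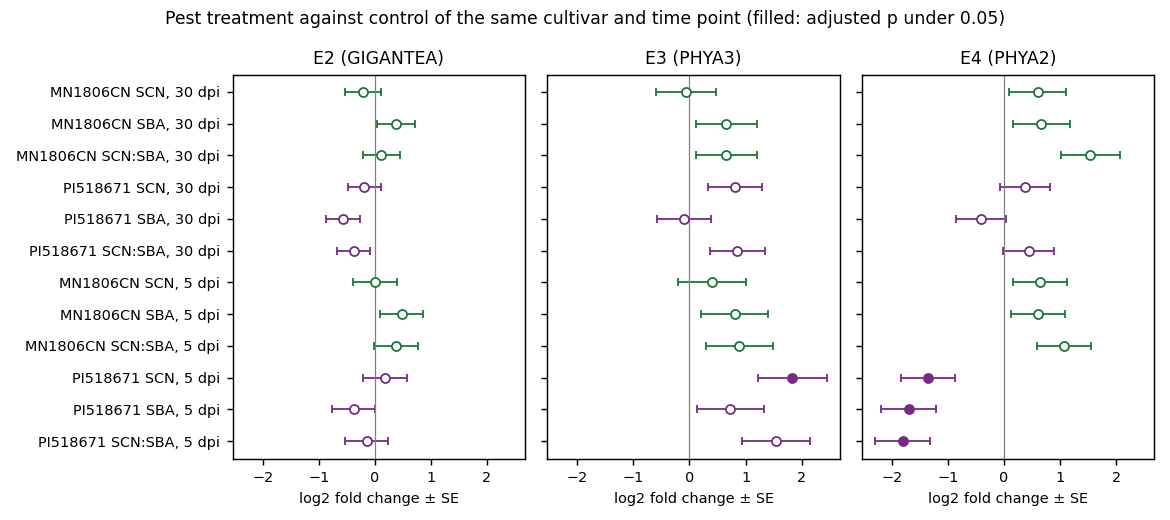
Log2 fold change of each pest treatment against the control of the same cultivar and time point (horizontal axis, with SE bars) for E2, E3 and E4, with MN1806CN in green above PI518671 in purple and 30 dpi above 5 dpi. Filled points have an adjusted p under 0.05: E3 with SCN (1.83) and E4 with SCN, SBA and SCN:SBA (-1.35, -1.70 and -1.81), all in PI518671 at 5 dpi.

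At 30 dpi 0 of the 18 values of the 3 genes against control were called by edgeR with all libraries of the time point, where 1 had an unadjusted p under 0.05 and 1 was called by DESeq2. In a fit of the groups alone, E3 with SCN in PI518671 was called (0.81, adjusted p = 0.0394), and without PI518671 SBA replicate 3 E4 with SBA was (-1.28, adjusted p = 0.0491). With SCN 0.58% of all genes were called in MN1806CN and 0.735% in PI518671, and with SBA 0.0116% and 0.00232%. The largest value of a maturity gene was that of E4 with SCN:SBA in MN1806CN, where it was 72.7, 119 and 95.2 CPM, against 39.8 and 26.8 in the 2 control libraries. Its log2 fold change was 1.54 ± 0.53 (adjusted p = 0.06, by DESeq2 1.51 and 0.0229, without SCN:SBA replicate 1 1.73 and 0.0484), with 13.7% of all genes called and 43.3% without overlap. In PI518671 the same treatment gave 53.7, 53.2 and 41.7 CPM, against 37.8, 37.4 and 34.1 in the control, a log2 fold change of 0.44 ± 0.45 (adjusted p = 0.654, 2.48% of all genes called). The 12 comparisons with control are not independent, since those of a cultivar and time point share their control libraries. On TMM-scaled CPM, E4 had no overlap in 11 of them, E3 in 4 and E2 in 2, while 20.7 to 41.8% of all genes had none at 5 dpi. At 30 dpi these shares were 34.9%, 30% and 43.3% with SCN, SBA and SCN:SBA in MN1806CN and 35.1%, 17.7% and 33.8% in PI518671. E2 was called in 0 of 12, where 0 to 33.9% of all genes were, with log2 fold changes of -0.57 to 0.48 and adjusted p from 0.324 upwards. In PI518671 at 5 dpi, E2 with SBA and SCN:SBA changed sign without the TMM scaling (0.20 and 0.43). It had 0 values with an unadjusted p under 0.05, 0 calls by DESeq2 and 0 in the other settings with all libraries.

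Between time points, with the water bath changing along with them, E4 was lower at 30 dpi in PI518671. It was 40.0 ± 14.4 CPM at 30 dpi, against 83.8 ± 61.8 at 5 dpi (SD, n = 12 each), a fall of 0.90 on the log2 scale (SE 0.24, adjusted p = 0.00371, 34.2% of all genes called). Without the control groups the log2 fold change was -0.46 and not called (adjusted p = 0.272). In MN1806CN, E4 was 60.1 ± 26.7 CPM at 30 dpi (SD, n = 11) and 67.3 ± 19.5 at 5 dpi (SD, n = 12) over the pooled libraries. The log2 fold change averaged over treatments was -0.28 ± 0.25 (adjusted p = 0.397). There 0 of the 3 genes were called (0 at an unadjusted p under 0.05, 0 by DESeq2), beside 41.3% of all genes. E2 and E3 had positive time values in MN1806CN (0.20 ± 0.18 and 0.24 ± 0.29) and negative ones in PI518671 (-0.36 ± 0.17 and -0.47 ± 0.28), none of them called. Without PI518671 SBA at 30 dpi replicate 3, E2 (-0.45, adjusted p = 0.0421) and E3 (-0.76, adjusted p = 0.0274) were called in PI518671, and E2 also without SCN:SBA at 5 dpi replicate 3 (-0.46, adjusted p = 0.0098). The difference between the cultivars in the time change was 0.56 ± 0.25 for E2, 0.71 ± 0.41 for E3 and 0.62 ± 0.35 for E4, and none passed the test (adjusted p = 0.117, 0.236 and 0.218, with 17.5% of all genes called). That of E2 was called without PI518671 SCN:SBA at 5 dpi replicate 3 (0.66, adjusted p = 0.0154).

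Ordered by mean level over the 16 groups, E4 was highest in PI518671 control at 5 dpi, followed by MN1806CN SCN:SBA at 30 dpi (95.7 ± 23.2 CPM) and MN1806CN SCN:SBA at 5 dpi (90.3 ± 13.7), and lowest in PI518671 SBA at 30 dpi (27.3 ± 23.9). Of the 15 pairs of neighbours in this order, 2 did not overlap, the highest group with the next, and MN1806CN control at 5 dpi with PI518671 control at 30 dpi. For E3 the order ran from PI518671 SCN at 5 dpi (10.6 ± 2.06 CPM) to PI518671 control at 5 dpi (3.14 ± 2.63), and for E2 from MN1806CN SBA at 30 dpi (307 ± 46.4) to PI518671 SBA at 30 dpi (149 ± 69.3). All 15 pairs of neighbours overlapped for both genes. PI518671 control at 5 dpi thus had the highest mean of E4 and the lowest mean of E3. For E3 the mean of PI518671 SBA at 30 dpi was close (3.19 ± 3.04 CPM). By median, E3 in PI518671 control at 5 dpi (3.20 CPM) lay above PI518671 SBA (2.15) and PI518671 control (3.12) at 30 dpi.

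Within groups, E2, E3 and E4 were high or low in the same libraries. In PI518671 SCN:SBA at 5 dpi replicate 3, E2 was 65.0, E3 2.13 and E4 8.78 CPM, while the other replicates had 294 and 314, 11.9 and 13, and 67.6 and 68.3. PI518671 SBA at 30 dpi replicate 2 was likewise the lowest of its group in all 3, at 74.6, 0.810 and 4.98 CPM. These were 2 of the libraries with the lowest agreement with their replicates, at 14700125 and 22011320 counts. The nodule IDs summed to 6570 CPM in the first, against 7957 and 568 in its replicates, and to 476 CPM in the second, against 426 and 11782 in its replicates, where the library at 11782 CPM is replicate 3, the highest of its group in all 3 genes. The second also had the largest share of counts in its 10 highest genes at 30 dpi (6.59%) and a TMM factor of 0.785, and the part of these in the result was not tested. Over the 47 libraries the deviations from the group means, on log2(TMM CPM + 1), correlated with Pearson's r = 0.89 for E2 and E4, 0.81 for E2 and E3 and 0.79 for E3 and E4. Without those 2 libraries r was 0.69, 0.67 and 0.64. It was 0.76, 0.83 and 0.80 within MN1806CN (n = 23) and 0.91, 0.81 and 0.79 within PI518671 (n = 24). All 3 genes lay above their group mean in 17 libraries and below it in 14, with 16 mixed. These are descriptions, since the genes share libraries and their scaling, and correlations as high were found for 0.404 to 7.54% of the 34389 genes with a mean of at least 1 CPM.

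**Figure D4:**
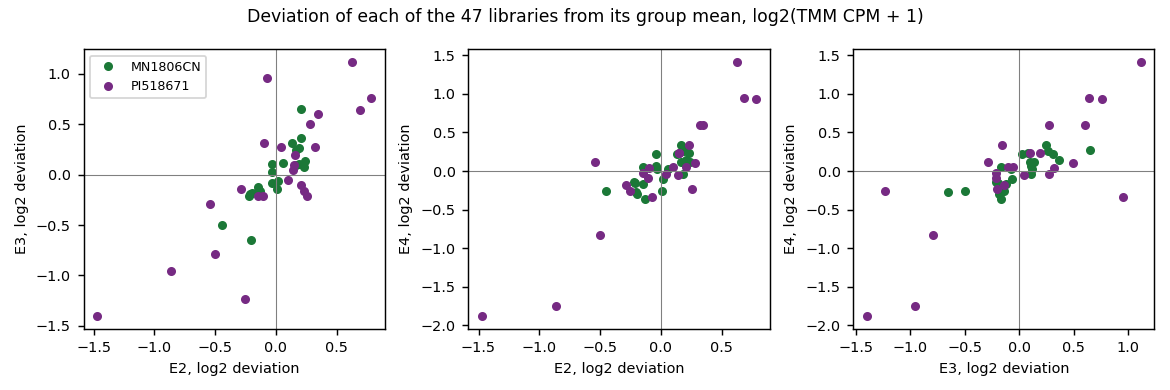
Deviation of each library from the mean of its group on log2(TMM CPM + 1), for E2 against E3, E2 against E4 and E3 against E4, with MN1806CN in green and PI518671 in purple. Each point is 1 of 47 libraries. The points run along the diagonal (r = 0.81, 0.89 and 0.79), and the 2 at the lower left are PI518671 SCN:SBA at 5 dpi replicate 3 and PI518671 SBA at 30 dpi replicate 2.

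The spread between replicates was wide for these genes. The pooled within-group SD was 0.46 for E2, 0.60 for E3 and 0.65 for E4 on the same log2 scale, against a median of 0.37 over those 34389 genes, and 67.6%, 85.3% and 89.5% of the genes had a lower SD. In PI518671 the range over libraries was 4.83-fold for E2, 27.0-fold for E3 and 49.3-fold for E4, and in MN1806CN it was 2.24-fold, 3.79-fold and 4.44-fold.

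The genes with the profile most like each member over the 47 libraries were picked by Pearson's r on log2(TMM CPM + 1), with no test. They were Glyma.10g027000 (r = 0.93) and Glyma.13g220000 (r = 0.92) for E2, Glyma.13g156500 (r = 0.90) and Glyma.10g218400 (r = 0.88) for E3, and Glyma.09g199100 and Glyma.17g111500 (r = 0.95 each) for E4. On deviations from the group means these r were 0.91 and 0.89, 0.90 and 0.88, and 0.93 and 0.96. The files do not pair these IDs with names. No member was among the 2 closest genes of another.

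A list of 37 further IDs for genes of flowering time (paralogues of the members, other phytochromes, FT and TFL1 genes, clock genes, CONSTANS-like and floral MADS genes) was written from general knowledge, and since the files do not name the IDs it is given by counts only. Of the 37, 22 passed the filter on low values, among them 3 of the 13 listed for the FT and TFL1 family. In control roots at 5 dpi, 3 were higher and 3 lower in MN1806CN than in PI518671 (6 of 22, beside 12.6% higher and 9.89% lower of all genes), with a median log2 fold change of -0.25 against 0 over all genes. Averaged over treatments at 30 dpi, 8 were higher and 1 lower in MN1806CN (9 of 22, beside 18.2% and 24.5% of all genes), with a median of 0.31 against 0.0041. The 4 tested paralogue IDs had 2 called in each of these comparisons, both lower in MN1806CN in the controls at 5 dpi and both higher in the average at 30 dpi. In those 5 dpi controls the FT and TFL1, CONSTANS-like and floral MADS IDs each had 1 called, higher in MN1806CN, and the clock IDs had 1, lower. Averaged over treatments at 5 dpi, the paralogue IDs had 1 higher and 1 lower. The whole list there had 6 higher and 2 lower (8 of 22, beside 23% of all genes called). In PI518671 at 5 dpi, 4 rose and 4 fell with SCN, 3 rose and 4 fell with SBA and 3 rose and 6 fell with SCN:SBA, against their control. Of all genes 19%, 10.9% and 17.8% rose and 14.9%, 12.2% and 14.5% fell.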

How the data were processed

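The authors trimmed single reads with Btrim64, checked them with FastQC 0.11.3 and MultiQC 1.3, and quantified them with Salmon 0.9.1 against primary transcripts (annotation Wm82.a2.v1). They deposited estimated counts per gene and library, neither normalized nor filtered, 42.7% of them fractional. Salmon divides reads between similar transcripts, so counts of genes with close paralogues are uncertain to that degree (E2, E3 and E4 were fractional in 47, 11 and 47 libraries). Reads of MN1806CN were matched to transcripts of the other cultivar. In the paper, every control library of MN1806CN had a smaller share of mapped reads than every control library of that other cultivar.

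Counts were rounded and filtered at 0.5 CPM in at least 1 library (43122 genes). Two-sided quasi-likelihood F tests in edgeR 4.0.16 (R 4.3.3, TMM) covered 27 comparisons, with Benjamini-Hochberg adjustment over all genes kept. Fits held all libraries of a time point, or all 47 for time. Standard errors were taken as |log2 change| / √F. The fits were tested on simulated data. Alternatives were DESeq2 1.42.0, other scalings, filters and fits, a replicate block and leaving out each library. Fits without TMM scaling or without the control groups and the exact tests of E1 were added after the data were seen.

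Groups came from the labels. The 4 genes and all lists were chosen with earlier results of these data known. Named genes were the 4 members and, for E2, E3 and E4, the 2 genes with the highest r. Of 55983 IDs, 0 matched the gene table used here (Glycine_max_v4.0), so no coordinate or sequence is given and levels are not compared between genes. Floors cover counting error only, since reads carry no molecular identifiers.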

Additional observations from a re-analysis of the deposited data

Results flagged for a closer look

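The difference of E4 between roots of infested and control plants at 5 dpi had opposite signs in the 2 cultivars. The cultivar by treatment interaction had an adjusted p of 0.0346 (edgeR quasi-likelihood F test), with the limits given in the report. That call was lost without the TMM scaling (adjusted p = 0.102) and in 7 of 24 fits that left out a library. Every MN1806CN library with a pest lay above every MN1806CN control library, at a log2 fold change of 0.64 with SCN, 0.61 with SBA and 1.07 with SCN:SBA, while every PI518671 library with a pest lay below every PI518671 control library, at -1.35, -1.70 and -1.81. This separation holds on TMM-scaled CPM. Scaled to library totals only, PI518671 SBA replicate 2 (86.2 CPM) lay above PI518671 control replicate 2 (84.3 CPM). With all libraries of the time point, edgeR called none of the MN1806CN values (adjusted p = 0.663, 0.633 and 0.242 with SCN, SBA and SCN:SBA). Of all genes, 21.6%, 20.7% and 33.5% did not overlap in these comparisons. In PI518671 these shares were 41.8%, 31.1% and 37.2%. For each pest alone the difference between the cultivars was not tested. The 3 contrasts within a cultivar share their control libraries, so they are not independent of each other.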

How the results depend on the processing

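Over 27 comparisons, 687 values of E2, E3 and E4 kept their direction and their side of the threshold under settings other than leaving out a library, 9 became called, 10 lost the call and 8 reversed. Leaving out a library, these numbers were 846, 15, 27 and 24. Of the 32 reversed values, 0 were of called results.

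With the groups compared alone, the counts of called genes were 4188 for the cultivars in control roots at 5 dpi, 7396, 938 and 4133 for SCN, SBA and SCN:SBA in PI518671 at 5 dpi and 463 for the cultivars with SBA at 30 dpi. With all 47 libraries in the fit, that last count was 4782 and the interaction at 5 dpi 9095 (8560 with DESeq2, against 4431). Without the control groups the count for time in PI518671 was 8842. The main counts were 9714, 14633, 9941, 13922, 7729 and 14762.

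With the groups alone, E3 with SCN at 5 dpi was called between the cultivars (-1.20, adjusted p = 0.0204), E4 with SCN:SBA at 30 dpi also (0.93, 0.0426), as were, against control, E4 with SCN:SBA in MN1806CN at 5 dpi (1.01) and E3 with SCN in PI518671 at 30 dpi (0.81), and the values of lost calls were 1.79 (E3, SCN), -1.72 and -1.82 (E4, SBA and SCN:SBA, PI518671 at 5 dpi) and 1.03 (E2, SBA at 30 dpi, and 1.04 with all 47 libraries). DESeq2 added E3 between the cultivars with SBA at 30 dpi (1.27) and, against control, E3 with SCN:SBA in PI518671 at 5 dpi (1.49) and E4 with SCN:SBA in MN1806CN at 30 dpi (1.51). Without TMM scaling the E4 values in PI518671 at 5 dpi were -0.94, -1.09 and -1.19 and the interaction F was 4.39. Without the control groups E4 was 0.43 in the 5 dpi average, against -0.17, and -0.46 for time in PI518671. Another value that reversed was E2 with SCN in MN1806CN at 5 dpi (0.013 with the replicate block, 4.9e-05 with counts not rounded, 0.13 unscaled). Unscaled, E2 between control roots at 30 dpi (-0.0098) and E3 with SCN in MN1806CN at 30 dpi (0.020) also reversed. So did E2 with SBA and SCN:SBA in PI518671 at 5 dpi (0.20 and 0.43 unscaled, against -0.38 and -0.15). In these last 2 comparisons the median of all genes moved by 0.53 and 0.52 without the scaling. The cause of the reversals was not tested.

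With 1 library left out, the counts ranged from 6058 to 12500 for the cultivars in control roots at 5 dpi, 4543 to 15882 for SBA and 9175 to 17733 for SCN:SBA in PI518671 at 5 dpi, 1809 to 9181 for the interaction at 5 dpi and 3328 to 16934 for the cultivars with SBA at 30 dpi. Between the cultivars at 5 dpi, E3 ranged from -0.31 to 0.90 in controls and -0.061 to 0.70 with SBA, E4 from -0.062 to 0.15 with SCN and E2 from -0.34 to 0.42 with SCN:SBA. At 30 dpi in controls the ranges were -0.16 to 0.25 (E2), -0.55 to 1.06 (E3) and -0.47 to 0.091 (E4), with SCN -0.057 to 0.11 (E2), with SBA 0.72 to 1.32 (E2), 0.80 to 2.32 (E3) and 0.45 to 1.78 (E4), and in the average 0.36 to 0.49 (E2), 0.13 to 0.66 (E3) and 0.34 to 0.65 (E4). Against control in PI518671 at 5 dpi, E3 with SCN ranged from 1.28 to 2.47, E4 with SCN from -1.62 to -1.05 and with SBA from -2.05 to -1.32, and E2 with SCN:SBA from -0.47 to 0.29. The interaction F of E4 at 5 dpi ranged from 4.80 to 13.2. Other ranges that crossed 0 were those of E2 with SCN in MN1806CN (-0.10 to 0.12 at 5 dpi and -0.40 to 0.0041 at 30 dpi), E3 with SCN (-0.66 to 0.95) and E2 with SCN:SBA (-0.073 to 0.33) in MN1806CN at 30 dpi, E3 and E4 with SBA in PI518671 at 30 dpi (-1.20 to 0.36 and -1.28 to 0.089) and E3 over time in MN1806CN (-0.019 to 0.40).

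The replicate block changed no call of the members (80 of 81 values kept direction and side of the threshold). Plants were grown in randomized blocks, and the replicates of a time point came from 3 of them, but the sources used here do not say that a replicate number marks a block. The r of same-numbered libraries across cultivars ran from -0.28 to 0.38 over 23 pairs (median 0.053), and 10 were over 0.1. In 1 of the 8 cultivar comparisons every pair was over 0.1.

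With 2 or 3 libraries in a group, a missing call does not show that levels were alike. E1 was at or near the limit that a count of 0 allows in these libraries. The fits without TMM scaling and without the control groups were chosen after seeing the data.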

Other observations

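The few E1 counts were found mainly in roots with SCN. E1 was above 0 in 10 of 24 libraries with SCN or SCN:SBA (17 counts), against 1 of 23 libraries with SBA or no pest (2 counts). By treatment these were 5 of 12 SCN libraries, 5 of 12 SCN:SBA libraries, 0 of 12 SBA libraries and 1 of 11 control libraries. This split was noticed in the counts and was not tested, no library exceeded 4 counts, and a count of 0 allows up to 3.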
